A study of Mus musculus with 2 samples.

Results

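The miRNA genes Mir183, Mir96 and Mir182 form 1 cluster on mouse chromosome 6, and all 3 were found by name among the 1973 gene rows of each count table. Their levels were taken from small RNA sequencing of total RNA from fetal mouse liver at embryonic day 16.5. The study has 1 group, healthy B6NCrl liver, with no added treatment or allele named in the labels, and 2 libraries that the labels number as biological replicates 1 and 2. Each library is a pool of livers from male and female embryos. The pool of replicate 2 came from 41 embryos, and the size of the other pool is not given. No condition can therefore be compared, and the questions are how much of each hairpin's product the fetal liver held, how the 3 stood to one another, and whether they differed between the pools.

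The 3 hairpins are known to be cut from 1 primary transcript and are best known from sensory cells, where the cluster is abundant in the retina and in the hair cells of the inner ear. Changes in the seed of miR-96, the stretch near the 5′ end that pairs with target messages, are known to cause hearing loss in mice and humans. The cluster is also expressed in several epithelia and in activated lymphocytes, and it is often raised in carcinomas, hepatocellular carcinoma among them. A mature miRNA comes from either arm of its hairpin, 5p or 3p, and represses the messages that its seed pairs with, so miRNAs with the same seed share many targets.

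The mature sequences are shown because the seeds group the members. All 3 members matched the RefSeq table of mouse miRNAs (GRCm38.p6), which gives 2 mature arms for each. Capitals mark the seed, bases 2 to 8 from the 5′ end.
miR-183-5p: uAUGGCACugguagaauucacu
miR-96-5p: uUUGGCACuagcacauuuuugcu
miR-182-5p: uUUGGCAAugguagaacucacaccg
miR-183-3p: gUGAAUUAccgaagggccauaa
miR-96-3p: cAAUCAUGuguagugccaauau
miR-182-3p: gUGGUUCUagacuugccaacu
Among the 5p arms, miR-96 and miR-182 have the same bases 2 to 7 and differ within the first 8 only by C8A (miR-96 first, positions counted from the 5′ end). miR-183 differs from miR-96 in those bases by A2U, and from miR-182 by A2U and C8A. Over the whole arm, seed included, the likeness runs the other way. Aligned from the 5′ end without gaps, miR-183-5p and miR-182-5p have the same base at 18 of 22 positions, with a shared run of 8 bases that starts at position 9 in both. miR-183-5p and miR-96-5p match at 13 of 22 positions, and miR-96-5p and miR-182-5p at 12 of 23.

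The hairpins are shown with both mature arms in capitals, because the count tables give 1 value for a whole hairpin and do not separate its arms.
Mir183: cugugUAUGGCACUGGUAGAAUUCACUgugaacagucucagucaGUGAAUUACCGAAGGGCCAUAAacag
Mir96: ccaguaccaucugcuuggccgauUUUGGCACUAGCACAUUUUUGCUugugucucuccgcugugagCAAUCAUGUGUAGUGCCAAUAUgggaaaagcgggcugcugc
Mir182: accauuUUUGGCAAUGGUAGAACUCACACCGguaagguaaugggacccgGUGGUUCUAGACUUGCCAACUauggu
On mm10, Mir183 (ENSMUSG00000065619.2) lies on chromosome 6 at 30169668 to 30169737, Mir96 (ENSMUSG00000065586.1) at 30169446 to 30169551 and Mir182 (ENSMUSG00000076361.1) at 30165918 to 30165992, all on the minus strand. In transcript order Mir183 comes first, Mir96 follows after 116 bases and Mir182 after a further 3453, and the cluster spans 3820 bases. None of the 3 overlaps another gene of GENCODE M21 on either strand. The nearest genes are both on the opposite strand: the long noncoding RNA gene Rncr4, which starts 3155 bases upstream of Mir183, and Nrf1, which encodes a transcription factor of nuclear-encoded mitochondrial genes and ends 12459 bases downstream of Mir182. No 18-base word of the 3 hairpins occurs in another listed gene, so no listed gene shares a stretch of that length with their reads.

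**Figure D1:**
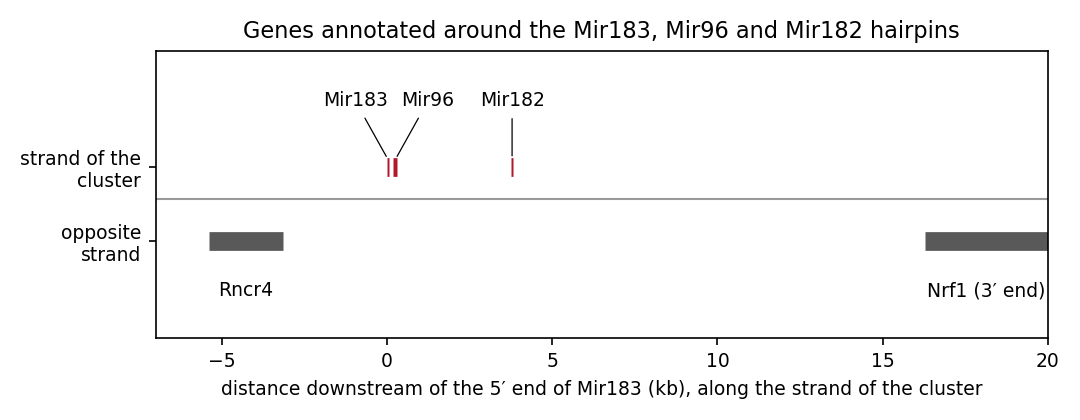
Genes annotated in GENCODE M21 around the cluster, drawn to scale by distance in kb downstream of the 5′ end of Mir183, with the strand of the cluster above the line and the opposite strand below. Mir183 and Mir96 are 116 bases apart, Mir182 follows 3453 bases further on, and no gene overlaps them.

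The libraries held 5930074 (replicate 1) and 5102289 (replicate 2) counts on the annotated strand of miRNA genes, so 1 count is worth 0.169 and 0.196 CPM, a count divided by its library's total and multiplied by 1000000. A count of 0 allows up to 3 counts, or 0.506 and 0.588 CPM. Markers of the labelled tissue were present. The hepatocyte miRNA Mir122 was at 213274 and 214555 CPM, and the erythroid, leukocyte, endothelial and mesenchymal lists summed to between 16075 and 48546 CPM in either library. Intervals and floors here cover counting error only: whether molecular identifiers were used is not known here, and without them reads are not independent molecules. A miRNA read covers a whole mature arm, so counts were not divided by hairpin length, and no error given here covers unequal capture of different sequences.

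All 3 members were detected in both pools, with Mir182 and Mir183 at like levels and Mir96 lower. Together they held 0.0530% of the gene counts in replicate 1, with a 95% Clopper-Pearson interval from 0.0511% to 0.0548%, and 0.0709% (0.0686% to 0.0732%) in the other pool, a mean of 0.0619% ± 0.0127 (SD, n = 2). By mean CPM, Mir182 ranked 139, Mir183 143 and Mir96 181 of the 1973 rows, of which 708 had a count and 183 reached a mean of 100 CPM.

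Mir183, the hairpin nearest the 5′ end of the transcript, had 1288 counts in replicate 1 and 1381 in replicate 2. On the CPM scale its level was 217.2 (95% exact Poisson interval 205.5 to 229.4) and 270.7 (256.6 to 285.3), with a mean of 243.9 ± 37.8 (SD, n = 2). Its level was the higher one in replicate 2, and the 2 counting intervals do not overlap.

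Mir96, the hairpin in which seed changes are known to cause deafness, had 571 and 617 counts. Its level was 96.3 CPM (88.6 to 104.5) in replicate 1 and 120.9 CPM (111.6 to 130.9) in replicate 2, with a mean of 108.6 ± 17.4 (SD, n = 2). It was the lowest of the 3 in both pools, and its level in replicate 2 lay below the level of Mir183 and of Mir182 in either library.

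Mir182, whose mature 5p arm is known to target Foxo transcription factor messages, had 1281 and 1619 counts. Its level was 216.0 CPM (204.3 to 228.2) in replicate 1 and 317.3 CPM (302.0 to 333.2) in replicate 2, with a mean of 266.7 ± 71.6 (SD, n = 2). Of the 3 it had the widest spread between pools. Its range enclosed that of Mir183, so Mir182 and Mir183 could not be ordered beyond their spread, whereas Mir96 lay outside the ranges of both.

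**Figure D2:**
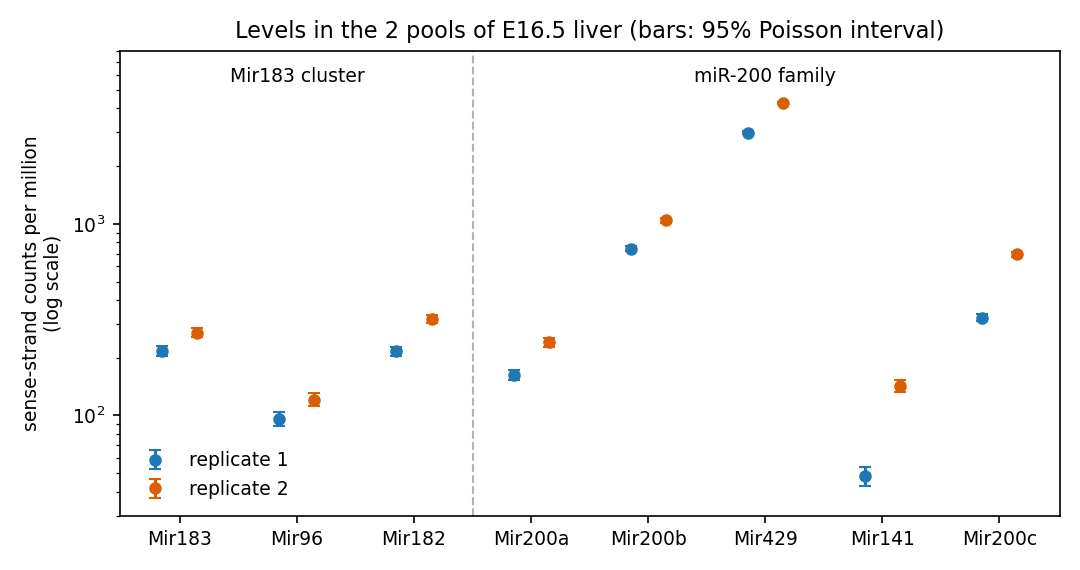
Sense-strand CPM on a log axis for the 3 cluster genes and the 5 genes of the miR-200 family in each library, with 95% Poisson intervals as bars. All 8 genes are higher in replicate 2, and Mir96 lies between 96.3 and 120.9 CPM, below Mir183 and Mir182 in both libraries.

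Genes of the same level show where the cluster stands in the profile. Next above Mir182 were Mir340 (277.4 ± 12.4 CPM, SD, n = 2) and Mir377 (275.8 ± 2.78), and next below it Mir493 (260.5 ± 7.13) and Mir350 (257.8 ± 16.7). Mir350 and Mir32 (249.5 ± 0.202) stood next above Mir183, and Mir673 (223.4 ± 45.6) and Mir669o (218.0 ± 31.5) next below, where Mir669o is uncertain, since other listed genes hold 58.2% of its 18-base words. Around Mir96 were Mir330 (111.7 ± 15.5) and Mir700 (110.8 ± 20.6) above, and Mir20b (107.8 ± 13.4) and Mir363 (104.3 ± 11.7), both of the miR-106a-363 cluster, below. The range of every one of these genes overlapped that of the member beside it, so none of these ranks separates a member from its neighbours.

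Within the cluster, Mir183 and Mir96 kept nearly the same ratio in both pools, and Mir182 stood higher against both in replicate 2. Mir183, 116 bases from Mir96, exceeded it 2.25-fold in the first pool and 2.24-fold in the second, or by 1.17 ± 0.0079 on the log2 scale (SD, n = 2). The counting SEs of these log2 ratios, 0.07 and 0.07, exceed that SD, so the agreement is closer than the counts can resolve. Mir182 exceeded Mir96 by 2.24-fold and 2.62-fold (log2 1.17 and 1.39, counting SEs 0.07 and 0.07). Against Mir183, Mir182 was at 0.995-fold in replicate 1 and 1.17-fold in replicate 2 (log2 -0.0079 and 0.23, counting SEs 0.06 and 0.05). These are ratios of counts of whole hairpins, and with 2 libraries an exact two-sided sign-flip test cannot go below p = 0.5, so none is given.

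Seen as shares of the cluster's own counts, 3140 in replicate 1 and 3617 in replicate 2, Mir182 made up 40.8% (39.1% to 42.5%, Clopper-Pearson) and 44.8% (43.1% to 46.4%). Mir183 made up 41.0% (39.3% to 42.8%) and 38.2% (36.6% to 39.8%). Mir96 made up 18.2% (16.8% to 19.6%) and 17.1% (15.8% to 18.3%). From replicate 1 to replicate 2 the share of Mir182, farthest from the 5′ end of the transcript, differed by 3.96 percentage points (counting SE 1.21), that of Mir183 by -2.84 (1.19) and that of Mir96 by -1.13 (0.930). The 3 shares sum to the whole, so none can change alone.

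**Figure D3:**
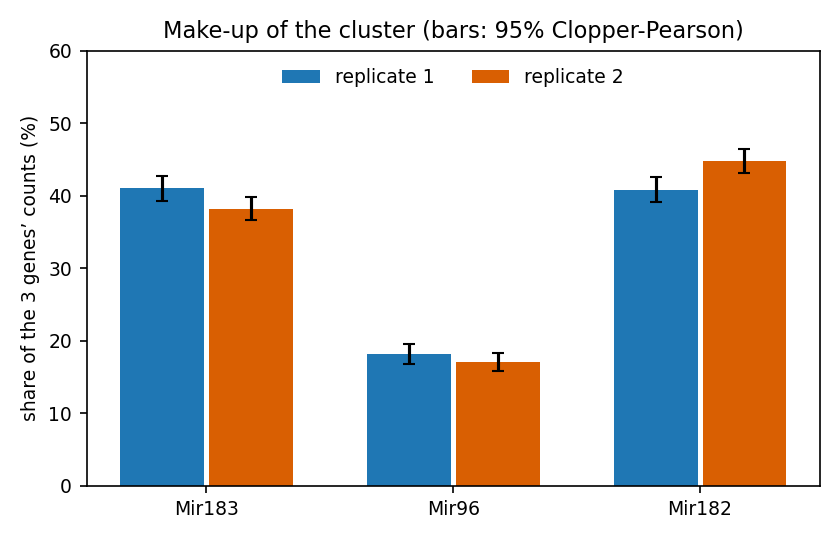
Share of the summed counts of the 3 genes held by each gene in each library, in percent from 0, with 95% Clopper-Pearson intervals as bars. Mir182 goes from 40.8% in replicate 1 to 44.8% in replicate 2, Mir183 from 41.0% to 38.2%, and Mir96 holds 18.2% and 17.1%.

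By seed, the 2 hairpins whose 5p arms have the same bases 2 to 7, Mir96 and Mir182, summed to 1852 counts (312.3 CPM) in replicate 1 and 2236 (438.2 CPM) in replicate 2. They made up 59.0% (57.2% to 60.7%) and 61.8% (60.2% to 63.4%) of the cluster, and Mir182 held the larger part of the pair in both. The share of the 5p arm in these counts is not known, so they are sums over hairpins and not over the mature miRNAs.

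In the RefSeq table, 1 mature miRNA of another gene has the 7-base seed of miR-96-5p, and with it bases 2 to 7 of miR-182-5p, shown here beside it because it would add to the same set of targets.
miR-96-5p: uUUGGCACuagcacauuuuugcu
miR-1271-5p: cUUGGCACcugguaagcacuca
Its gene, listed as Gm24195, had 0 counts in both libraries, which allows up to 0.506 and 0.588 CPM, while Mir96 was at 96.3 and 120.9 CPM. For miR-96-3p the match over bases 2 to 8 is miR-3475-5p, whose gene Mir3475 had 0 counts in replicate 1 and 1 in replicate 2. No 18-base word of either gene occurs in another listed gene. No mature miRNA of another gene in the table has bases 2 to 7 of either arm of miR-183 or of miR-182-3p.

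All 3 members were higher in replicate 2, Mir182 by 1.47-fold, Mir96 by 1.26-fold and Mir183 by 1.25-fold. On the log2 scale (replicate 2 over replicate 1) the differences were 0.55 for Mir182 (counting SE 0.05), 0.33 for Mir96 (0.08) and 0.32 for Mir183 (0.06), and the summed counts differed by 0.42 (0.04). In the two-sided exact binomial test, with Benjamini-Hochberg adjustment over all 440 genes with 10 or more counts, the adjusted p was 3.85e-24 for Mir182, 2.85e-04 for Mir96 and 5.50e-08 for Mir183. That test sets 2 libraries against counting error alone and says nothing of a condition. It called 196 of the 440 genes (44.5%), 77 of them higher in replicate 2 (17.5%) and 119 lower (27.0%). Of the 183 genes that reached 100 CPM, it called 145 (79.2%), with 52 higher (28.4%) and 93 lower (50.8%). A call was thus common in that set, but the set reaches far above the members, which ranked 139, 143 and 181. Its most abundant gene, Mir122, was called at a difference of 1.006-fold. The share called near the members' own level was not computed. The split by direction depends on the scaling: with TMM or DESeq2 size factors 96 genes were called higher and 98 lower, and at 100 CPM or more 66 and 77, while the 3 members were called higher under each.

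Set against the spread of the 183 genes of 100 CPM or more, whose log2 ratios ran from -0.50 at the 5th percentile to 0.44 at the 95th with a median of -0.08, Mir183 and Mir96 lay inside and Mir182 outside. A larger ratio than that of Mir182 was found in 5 of the 183 genes, than that of Mir96 in 12 and than that of Mir183 in 14. By size in either direction, 12 of the 183 differed more than Mir182, 47 more than Mir96 and 51 more than Mir183. The 3 members come from 1 transcript and are not independent of one another.

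**Figure D4:**
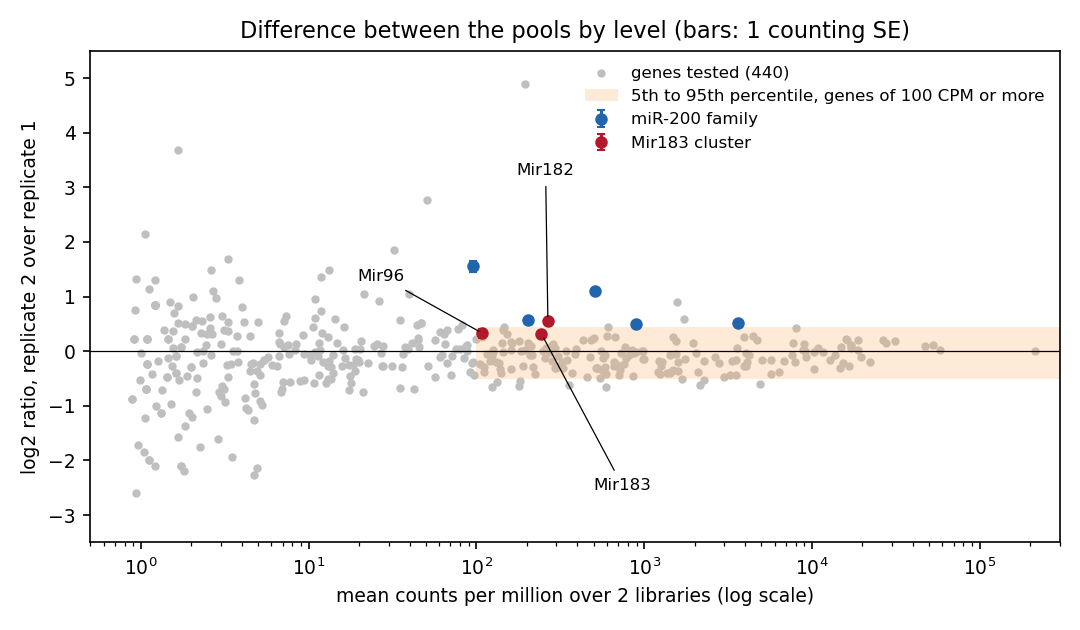
Log2 ratio of replicate 2 over replicate 1 against mean CPM (log axis) for the 440 genes tested, with the miR-183 cluster in red, the miR-200 family in blue, counting SEs as bars, and the 5th to 95th percentile of genes of 100 CPM or more shaded. Mir183 (0.32) and Mir96 (0.33) lie inside the shaded band of -0.50 to 0.44, and Mir182 (0.55) above it.

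The miR-200 family, 5 hairpins from a pair of clusters that maintain the epithelial state and serve here as markers of epithelial and biliary cells, was more abundant than the miR-183 cluster and moved the same way. All 5 were higher in replicate 2 past the exact test, with a median log2 ratio of 0.56 beside -0.08 over all genes tested, of which 17.5% were called higher (28.4% at 100 CPM or more). In the cluster of Mir200b, Mir200a and Mir429, the log2 ratios of 0.49, 0.56 and 0.51 were of the size of the ratio of Mir182. In the cluster of Mir200c and Mir141 they were larger, 1.09 and 1.56. The family summed to 4266 CPM in replicate 1 and 6376 CPM in replicate 2, which is 8.06 and 8.99 times the sum of the miR-183 cluster, 529.5 and 708.9 CPM. In whole liver, fewer cells of a type and less of an RNA per cell cannot be told apart. The part of epithelial cells in the difference of the miR-183 cluster was not tested.

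Markers of other cells gave a mixed picture between the same pools. The endocrine list of Mir375 and the miR-7 genes was called higher in replicate 2 in 4 of 4 members, beside 17.5% of all genes tested (28.4% at 100 CPM or more), with sums of 1535 and 2302 CPM. It was led by Mir375 (1378 and 2086 CPM), a miRNA of endocrine and epithelial cells, and Mir7-1 (136.1 and 169.7 CPM) had the same log2 ratio as Mir183 to 2 decimals, 0.32. Other listed genes hold 7.69% of the 18-base words of Mir7-1 and 8.75% of those of Mir7-2, whose counts may be too low. These are shares of the hairpin's words and not of its reads. A read covers a whole mature arm, and reads mapping to several places are left out. The share of reads lost can therefore be far larger than the share of words, and the ratio of such a gene may rest on what remains. The intestine-enriched Mir215 went from 12.6 to 376.3 CPM and its neighbour Mir194-1 from 14.0 to 50.8 CPM. Other listed genes hold 10% of the 18-base words of Mir194-1, so its counts may be too low by far more than that share. In the neural list, which stands nearest to the sensory cells known for the cluster, 1 of 9 tested members was called higher (Mir137), 1 lower (Mir219a-1) and 7 did not pass, beside 17.5% higher and 27.0% lower over all genes tested, and its sums were 325.8 and 332.6 CPM. Its defining markers were at or near 0 in both libraries, with 0 to 1 counts for the 3 copies of miR-124 and 0 to 7 for Mir9-2 and Mir9-3, but 23.3% to 54.9% of the words of these genes are found elsewhere in the list and their counts may be too low. The same limit holds for the miR-128, miR-138 and miR-219a genes, of whose words other listed genes hold 5.38% to 13.0%. The call of Mir219a-1 and the neural sums are thus uncertain, and only Mir132 and Mir137 share no word.

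Among blood, vascular, stromal and liver lists the sums differed less. The log2 ratio of the sums was 0.01 for the hepatocyte list, 0.06 for the leukocyte list, 0.09 for the endothelial miRNA Mir126a, 0.17 for the erythroid list and 0.18 for the mesenchymal list, against 0.42 for the miR-183 cluster and 0.58 for the miR-200 family. Single members could differ more than their sum, in either direction. Examples are Mir144 (0.42) and Mir486 (-0.66) in the erythroid list, and Mir199a-2 (0.96) and Mir214 (-0.44) in the mesenchymal list. In replicate 1, Mir122 held 213274 of the 219895 CPM of the hepatocyte list, and Mir223 held 16769 of the 17990 CPM of the leukocyte list. By members past the test, the hepatocyte list had 4 of 5 higher and 0 lower, the leukocyte list 1 of 5 and 0, the erythroid list 2 of 3 and 1, and the mesenchymal list 3 of 4 and 1, beside 17.5% and 27.0% over all genes tested. At 100 CPM or more, the level of most of these members, the shares were 28.4% and 50.8%. Mir194-1 is 1 of the 4 hepatocyte calls and is also in the intestine list. Counts may also be too low for Mir194-2, another of those calls, for Mir199a-2 and for Mir146 of the leukocyte list. Other listed genes hold 7.25%, 22.6% and 8.33% of their words, and the share of reads lost can be far larger. Mir9-1 had no row under that name, nor had the leukocyte miRNA Mir142. The row of Mir142b, however, held 186850 and 186235 counts on its other strand (31509 and 36500 CPM of the sense total), and with these, an alternative chosen after seeing the data, the leukocyte sum would be 49498 and 55236 CPM, with a log2 ratio of 0.16. The part of these cells in the difference of the miR-183 cluster was not tested.

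The genes of 100 CPM or more whose log2 ratio between the 2 libraries came closest to that of the summed cluster (0.42) were the erythroid Mir144 (0.42), Mir181b-2 (0.44), Mir301 (0.45), Mir6236 (0.39) and Mir200b (0.49). This likeness rests on 1 ratio from 2 libraries and is a description. For Mir181b-2, 12.5% of the words are also found in another row, so its counts may be too low. The erythroid partner of Mir144, Mir451a, had a log2 ratio of 0.09, so likeness to the cluster did not extend over that transcript.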

How the data were processed

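Small RNA libraries of 2 pools of E16.5 mouse liver were analysed from the raw counts per gene that the authors deposited. The deposited text names assembly mm10 and annotation M4; for aligner and counter, no source used here gives a name. Of 3 count columns, the first equals the sum of the others in all 1973 gene rows. Of those others, the one with the larger total was taken as the sense strand, and tally rows were left out. Reads mapping to several places (28.1% and 28.2% of those tallied) are outside the gene counts. Names and coordinates came from GENCODE M21 by versionless identifier (1894 of 1973 rows matched), and sequences from RefSeq.

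CPM, exact Poisson and Clopper-Pearson intervals and the exact binomial test (genes with 10 or more counts, Benjamini-Hochberg over all of them, threshold 0.05) were computed with Python 3.11.15 and scipy 1.17.1. Log2 ratios had 0.5 added to each count, except for sums. A quasi-likelihood fit was not made, because 1 group gives no contrast. The test was checked on counts simulated with counting error alone and no spread between pools. That check therefore does not show how the test behaves where pools differ by more than counting error. Alternatives used TMM (edgeR 4.0.16), DESeq2 1.42.0 size factors, all-strand counts, a total without Mir122, a pseudocount of 1 and other count minimums. Members, lists and the rule for named genes (the members, the miR-200 family, genes of the same seed, the 2 nearest genes by level on each side, the 5 nearest by ratio) were chosen with earlier results of these data known. Other genes named from the lists are examples that were picked with their values known.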

Additional observations from a re-analysis of the deposited data

Results flagged for a closer look

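Outside the sense-strand column, Mir183 had 4 counts on the other strand in replicate 1 and 8 in replicate 2, above the 3 counts that a count of 0 allows. They made up 0.310% and 0.576% of its counts on both strands. Of the 183 genes of 100 CPM or more, 157 had 0 counts on the other strand in both libraries. Mir182 had 1 and 2 such counts and Mir96 had 0 in both libraries.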

How the results depend on the processing

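Of the values recomputed for the 3 genes, 51 stayed within their spread or on the same side of the threshold, and 4 moved. The 51 include the values from leaving out either library. Those could not move, since each of 2 values lies within 1 SD of their mean. The 4 are levels over a total without Mir122: 310.3 CPM for Mir183, 138.2 for Mir96, 339.3 for Mir182 and 0.0788% for their summed share. The genes called higher in replicate 2 numbered 74 to 96 and those called lower 98 to 126 over the settings, with 96 and 98 under TMM and DESeq2 scaling in place of 77 and 119. Under either scaling 1 more neural and 1 more leukocyte gene was called higher, and the calls in the other lists kept their counts. Over 8 settings the log2 ratio between pools ran from 0.32 to 0.39 for Mir183 (exact test adjusted p at most 8.85e-08), from 0.33 to 0.40 for Mir96 (at most 4.58e-04) and from 0.55 to 0.63 for Mir182 (at most 6.19e-24). Among these settings, the other count minimums could not change a ratio, only the adjusted p. A pseudocount of 1 could change the ratios only slightly at such counts, and not the p. Leaving out either library gave 217.2 to 270.7 CPM for Mir183, 96.3 to 120.9 for Mir96, 216.0 to 317.3 for Mir182, and a summed share of 0.0530% to 0.0709%. It gave log2 ratios of 1.16 to 1.17 for Mir183 over Mir96, 1.17 to 1.39 for Mir182 over Mir96 and -0.0079 to 0.23 for Mir182 over Mir183. No paired analysis was possible because there is 1 group. With 2 pools, the spread between pools rests on 1 difference per gene.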
